A study of Mus musculus with 4 samples.

Results

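Hypoxia was compared with normoxia in RAW264.7 macrophages that all received IL6, by setting the array labelled Hypoxia+IL-6 (HC+IL6) against the array labelled Normoxia+IL-6 (NC+IL6). RAW264.7 is a mouse macrophage cell line transformed by a leukemia virus, so that the values describe 1 line and not macrophages taken from tissue. The cells of both groups were kept for 4 days with IL6 at 25 ng/ml, HC+IL6 in 1% oxygen and NC+IL6 in normoxia, whose oxygen level the sources used here do not give. The other 2 arrays hold cells without IL6 in normoxia (NC) and in hypoxia (HC), and each of the 4 conditions has 1 array. Probe sets, the groups of short probes that measure 1 transcript, were compared where the log2 signal was 7.5 or more on at least 1 of the 2 arrays with IL6. This held for 15449 of 45101 probe sets (34.3%), which stand for 8526 of 18194 genes. Both arrays reached the limit for 13748 probe sets, HC+IL6 alone for 1265 and NC+IL6 alone for 436. The brighter signal was between 7.5 and 7.6 for 373 probe sets, while 375 probe sets that did not take part had it between 7.4 and 7.5.

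Macrophages meet low oxygen in tumors, wounds and sites of infection. The hypoxia-inducible factors HIF-1 and HIF-2 are destroyed while prolyl hydroxylases have oxygen to use, and in hypoxia they accumulate and bind a short DNA element beside genes for glucose use, vessel growth and the hydroxylases themselves. IL6 acts on macrophages mainly through the kinase JAK1 and the transcription factor STAT3. Interferons switch on a large group of antiviral genes, and shortage of amino acids or stress of the endoplasmic reticulum (ER) acts through the factor ATF4 on genes for amino acid uptake and synthesis. The comparison asks how hypoxia affects macrophages cultured with IL6.

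Promoters of 5 called genes are shown here because they carry the DNA elements of these 3 pathways. The windows are the 250 bases before the transcription start in the RefSeq annotation of GRCm38.p6, written 5′ to 3′ on the strand of the gene, and capitals mark the element. For hypoxia the element was ACGTG or GCGTG, for interferon a pair of GAAA copies with 2 bases of any kind between them, and for ATF4 the amino acid response element TGATGNAA, each read on both strands. The letters of none of them contain another, but matches of 1 element can overlap, as they do in Bst2. Selenbp1 lies on the plus strand at chr3:94932833-94933082 with 3 hypoxia elements, and Mgarp on the minus strand at chr3:51396548-51396797 with 1.
Selenbp1: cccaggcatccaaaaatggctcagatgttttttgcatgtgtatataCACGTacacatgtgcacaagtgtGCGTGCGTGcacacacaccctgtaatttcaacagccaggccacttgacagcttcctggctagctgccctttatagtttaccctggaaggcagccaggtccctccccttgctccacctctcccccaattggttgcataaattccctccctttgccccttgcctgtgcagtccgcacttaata
Mgarp: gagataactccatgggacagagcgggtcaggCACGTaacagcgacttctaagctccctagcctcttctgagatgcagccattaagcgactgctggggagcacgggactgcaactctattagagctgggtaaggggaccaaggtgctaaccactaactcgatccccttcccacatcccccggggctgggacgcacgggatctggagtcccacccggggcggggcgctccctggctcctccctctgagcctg
The interferon element is found in Rsad2, minus strand at chr12:26456453-26456702, and 2 times in Bst2, minus strand at chr8:71537473-71537722.
Rsad2: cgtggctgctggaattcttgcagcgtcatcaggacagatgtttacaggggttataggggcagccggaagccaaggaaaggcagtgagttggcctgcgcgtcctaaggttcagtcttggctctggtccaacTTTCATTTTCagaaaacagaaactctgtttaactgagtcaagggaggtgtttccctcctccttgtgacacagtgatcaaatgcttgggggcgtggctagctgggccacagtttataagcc
Bst2: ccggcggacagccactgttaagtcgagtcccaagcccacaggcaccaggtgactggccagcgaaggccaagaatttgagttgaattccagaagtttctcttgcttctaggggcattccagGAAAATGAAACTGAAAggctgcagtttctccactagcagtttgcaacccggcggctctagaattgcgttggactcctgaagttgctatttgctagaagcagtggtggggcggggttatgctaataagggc
The amino acid response element is found once in Chac1, plus strand at chr2:119350992-119351241.
Chac1: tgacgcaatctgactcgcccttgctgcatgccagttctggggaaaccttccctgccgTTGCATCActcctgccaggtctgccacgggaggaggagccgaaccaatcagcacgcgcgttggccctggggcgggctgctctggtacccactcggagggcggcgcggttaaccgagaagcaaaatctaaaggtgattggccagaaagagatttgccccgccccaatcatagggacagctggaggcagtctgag
The first pair were among the genes higher in HC+IL6, and Rsad2, Bst2 and Chac1 were lower, with the values given below for each group.

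A gene was called higher or lower where its signals on the 2 arrays differed by 2-fold or more, which is a log2 ratio of 1 or more in size, after a dimmer signal under 7.5 had been raised to 7.5. A fold taken against a raised signal is written as at least that size. Since every condition has a single array, with nothing in the labels on how many cultures it holds, the differences were not checked against replicates and no p-value is given. Of the 8526 genes, 196 (2.3%) were higher in HC+IL6 and 111 (1.3%) were lower. The dimmer signal was under 7.5 for 28 of the higher and 13 of the lower genes, which took part through the brighter array only. The median log2 ratio was 0.01, the middle 90% lay between -0.63 and 0.77, and 84.2% of genes differed by less than 1.5-fold. Only 5 genes were higher and 10 lower by 4-fold or more. Counted over probe sets, 432 (2.8%) were higher and 192 (1.24%) lower, so that 69.2% of the called probe sets were higher. After quantile normalization of the 4 arrays this share was 59.6%, with 346 higher and 235 lower, and after cyclic loess it was 58.2%, with 336 and 241. Of the genes called, 163 of the 196 higher and 106 of the 111 lower remained called after quantile normalization.

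**Figure D1:**
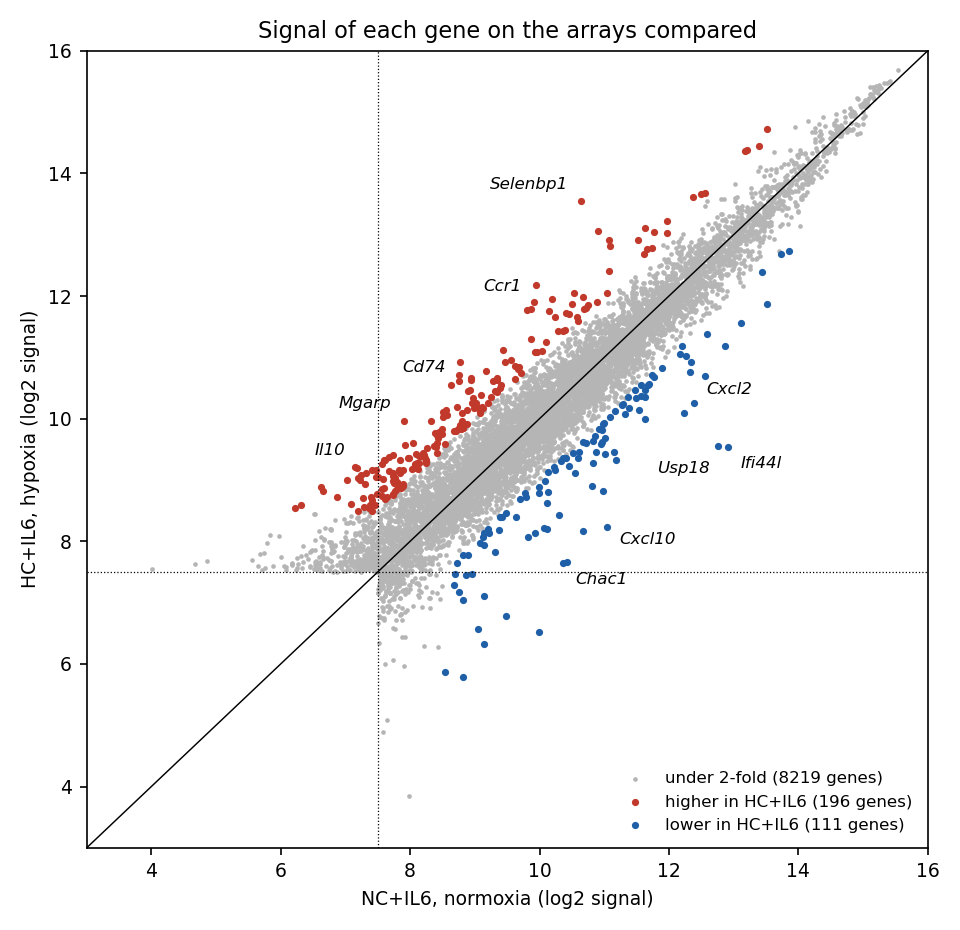
Each point is 1 of the 8526 genes, with its log2 signal in normoxia with IL6 (NC+IL6) on the x axis and in hypoxia with IL6 (HC+IL6) on the y axis. Red points are the 196 genes called higher in HC+IL6, blue points the 111 called lower, grey points the rest, the solid line marks equal signals and the dotted lines the limit of 7.5. Grey points beyond 2-fold lie where the dimmer signal was under the limit, and Selenbp1, at 13.54 against 10.63, stands farthest above the line among called genes.

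The calls are a matter of degree near the threshold. The higher gene nearest to it had a log2 ratio of 1.0003 and the nearest gene outside 0.9997, and within 0.1 of the threshold lay 53 higher genes on the inside and 85 on the outside. For lower genes these numbers were 36 and 42. Where a gene had several probe sets, all had the same sign in 82 of 86 higher genes and in 34 of 39 lower genes, against 61.4% of 3434 genes that were not called. The pooled SD of the log2 ratio between probe sets of the same gene was 0.29, over 7753 probe sets of 3098 genes. This spread measures disagreement between probe sets on the same arrays and not variation between cultures.

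The 2 arrays with IL6 also differed as a whole. Over all probe sets the median log2 signal was 5.86 and 5.55 in HC+IL6 and NC+IL6, and 15013 and 14184 probe sets reached the limit. The signal ratio of the 3′ to the 5′ end, a sign of RNA integrity, was 1.62 and 1.41 for the actin control and 0.88 and 0.93 for the Gapdh control. The part of these differences in the results below was not tested. All 16 macrophage identity genes, among them Csf1r, the receptor for macrophage colony-stimulating factor, and Lyz2, lysozyme, reached the limit in HC+IL6, and 15 of 16 did in NC+IL6. Csf1r had log2 signals of 14.73 and 14.78, and Lyz2 had 15.11 and 14.95. None of the 8 fibroblast, 8 epithelial, 7 endothelial, 6 T cell or 4 erythroid markers with a probe set reached the limit on either array with IL6. Of the B cell markers only Ighm did, the immunoglobulin mu chain, whose 3 probe sets were all lower in HC+IL6, with a log2 ratio of -1.59. Of the neutrophil markers only S100a8 did, with 7.86 in HC+IL6. RNA from a whole culture cannot tell fewer cells that express a gene from less RNA per cell.

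Genes listed here as HIF targets, a list drawn up with results of these data known, were among the higher genes in HC+IL6. Of 49 such genes, 35 could be compared, 12 (34.3%) were higher, none was lower, and the median log2 ratio was 0.52, against 2.3% of genes higher and a median of 0.01 over all genes. A positive ratio was found in 33 of the 35, the exceptions being Pfkfb4 at -0.18 and Ddit4 at -0.16. Selenbp1, which oxidizes methanethiol, had the highest ratio of all genes. Its log2 signals were 13.54 and 10.63 in HC+IL6 and NC+IL6, against 12.66 and 9.15 in HC and NC, which is 7.51-fold higher with IL6, and its 2 probe sets had the same sign. Both hypoxia arrays were thus brighter than both normoxia arrays. Mgarp, a mitochondrial protein involved in the transport of mitochondria, had 9.96 in HC+IL6, 7.90 in NC+IL6, 9.23 in HC and 6.46 in NC, a difference of 4.18-fold with IL6. Ankrd37, an ankyrin repeat protein, had 11.77, 9.81, 11.35 and 9.04 on the same arrays and was 3.9-fold higher.

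Members that sense or use oxygen were among the higher genes. Egln1, the main prolyl hydroxylase that marks HIF for destruction, was 2.11-fold higher, at a log2 signal of 10.43 in HC+IL6 against 9.35. Its relative Egln3 had 8.02 and 6.66, which is under 2-fold once the dimmer signal is raised to the limit. P4ha2, a subunit of the hydroxylase that matures collagen, was at least 2.62-fold higher, at 8.89 against 6.62. Among the mitochondrial members Fam162a was 2.08-fold higher, while Bnip3, which directs mitochondria to autophagy, had 14.35 and 13.62, a log2 ratio of 0.73. The secreted member Adm, adrenomedullin, a peptide that widens vessels, was 3.3-fold higher, at 10.65 against 8.93. Vegfa, the growth factor of vessels, was not called, at 9.41 against 9.01. Its log2 ratio of 0.39 with IL6 stood beside 1.24 without IL6, and its log2 signal was 9.01 in NC+IL6 and 7.28 in NC. Ndrg1, a stress-response gene, was 2.33-fold higher, and Ero1a, which oxidizes cysteines of proteins folding in the ER, was 2.27-fold higher with 3 of 3 probe sets in that direction. In hypoxia without IL6, 33 of the HIF targets could be compared and their median log2 ratio was 0.78. Of these, 15 were higher, against 2.91% of all genes measured there.

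The HIF subunits themselves did not reach the threshold, Hif1a with a log2 ratio of -0.08 and Arnt, its partner, with 0.60. Among the proteins that sense oxygen or degrade HIF, Siah2, a ubiquitin ligase that acts on the prolyl hydroxylases, was 2.17-fold lower, at 8.88 in HC+IL6 against 9.99 in NC+IL6. Of 26 tested genes for demethylases and hydroxylases that need oxygen, 4 were higher, against 2.3% of all genes, and none was lower, with a median log2 ratio of 0.26. These were Kdm7a, at 2.63-fold, and Kdm4c, at 2.06-fold, both histone demethylases, P4ha2, and Plod1, a lysyl hydroxylase of collagen, at 2.08-fold. After quantile normalization or cyclic loess 3 of the 26 were higher and 1 lower, and with the limit's signal added 2 were higher.

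Glucose metabolism differed at a few steps. Of 25 glycolysis genes 3 were higher, against 2.3% of all genes, and none was lower, with a median log2 ratio of 0.29 and a positive ratio in 20. Eno2, an enolase isoform, was 3.26-fold higher, with log2 signals of 9.38 in HC+IL6, 7.68 in NC+IL6, 7.78 in HC and 6.09 in NC. Aldoc, an aldolase isoform, was 2.39-fold higher, at 13.22 against 11.97, and Pfkfb3, whose product activates phosphofructokinase, was 2.35-fold higher, at 10.25 against 9.02. All 8 tested genes of the triose steps had a positive ratio. Other bright glycolysis genes were not called, with log2 ratios of 0.30 for Ldha, lactate dehydrogenase, and 0.29 for Pgk1, phosphoglycerate kinase. Gbe1, the glycogen branching enzyme, was 3.78-fold higher, at 11.79 in HC+IL6, 9.87 in NC+IL6, 10.40 in HC and 9.10 in NC. The 6 genes of the pentose phosphate pathway all had a negative ratio and none was called, with a median of -0.19.

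Of all lists, that of antiviral genes held the most lower genes. Of 68 interferon-stimulated genes 56 could be compared, 26 were lower (46.4%, against 1.3% of all genes), 1 was higher, and the median log2 ratio was -0.87. Over the 56 genes the median log2 signal was 9.58 in HC+IL6, 10.58 in NC+IL6, 8.84 in HC and 9.36 in NC. On the NC+IL6 array 50 of them were brightest. Only the arrays with IL6 could admit a gene, so these levels and this count partly follow from that choice. Ifi44l had the lowest ratio of all genes, with 9.54 in HC+IL6, 12.92 in NC+IL6, 6.99 in HC and 9.64 in NC, which is 10.4-fold lower with IL6. Usp18, which strips ISG15 from proteins and damps the interferon receptor, had 9.55, 12.76, 8.54 and 10.81 and was 9.23-fold lower. For both genes the order of the arrays was the same, with NC+IL6 brightest and HC dimmest. Zbp1, a sensor of unusual nucleic acid forms, had 8.17 in HC+IL6, 10.68 in NC+IL6, 3.01 in HC and 5.98 in NC and was 5.7-fold lower.

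Among effectors that act on viruses all 19 tested had a negative ratio, 9 of them lower by 2-fold or more. Cmpk2, which phosphorylates pyrimidine nucleotides in mitochondria, was at least 5.6-fold lower, at 6.52 in HC+IL6 against 9.99 in NC+IL6. Rsad2, or viperin, which makes a chain-terminating nucleotide, was at least 3.95-fold lower on the probe set used and lower on all 3 of its probe sets, at 6.79 against 9.48. Bst2, which tethers budding virus to the cell surface, was 3.19-fold lower, at 11.19 against 12.87. Oasl1 was 3.74-fold lower and Ifit2 3.37-fold lower. Xaf1, a binding partner of a death inhibitor, was 3.66-fold lower. The factors that carry the interferon signal differed less, with 1 of 8 lower and a median of -0.04. The one lower was Irf7, the factor that amplifies interferon production, at 9.72 against 10.86, while the receptor chain Ifnar1 had a log2 ratio of 0.39 and Irf9 -0.90. Ifi27, an interferon-induced mitochondrial protein, went the other way and was 3.56-fold higher, at a log2 signal of 12.91 in HC+IL6 against 11.07 and both probe sets in that direction. In hypoxia without IL6, 45 of the 56 genes could be compared, 6 were lower, none was higher, and the median was -0.36. Over all genes measured there 1.09% were lower. Ifit2 had a log2 ratio of 0.28 there.

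Some members of related gene families were also lower. Of the interferon-inducible GTPases that act on vacuoles of microbes, 4 could be compared and 3 were lower, against 1.3% of all genes. Irgm1 was 3.65-fold lower, at a log2 signal of 9.32 in HC+IL6 against 11.19, Irgm2 was 3.6-fold lower, and Igtp was 2.02-fold lower. Among 14 sensors of foreign nucleic acid 4 were lower, against 1.3% of all genes, and none higher. These were Zbp1, Ifi204, a DNA sensor, at 3.78-fold, and Ifih1 and Ddx58, the RNA sensors MDA5 and RIG-I, at 2.42-fold and 2.1-fold. Zbp1 was also counted above among the interferon-stimulated genes, so the lists overlap. Their downstream kinase Tbk1 had a log2 ratio of 0.35. H2-T24, a nonclassical class I molecule, was 6.79-fold lower, at 7.67 against 10.43, and the other 13 class I and peptide loading genes tested were not called. B2m, the common light chain, had 14.71 and 14.65. Psmb10, a subunit that replaces its constitutive partner in the immunoproteasome, was 2.02-fold lower, and all 4 tested immunoproteasome genes had a negative ratio.

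**Figure D2:**
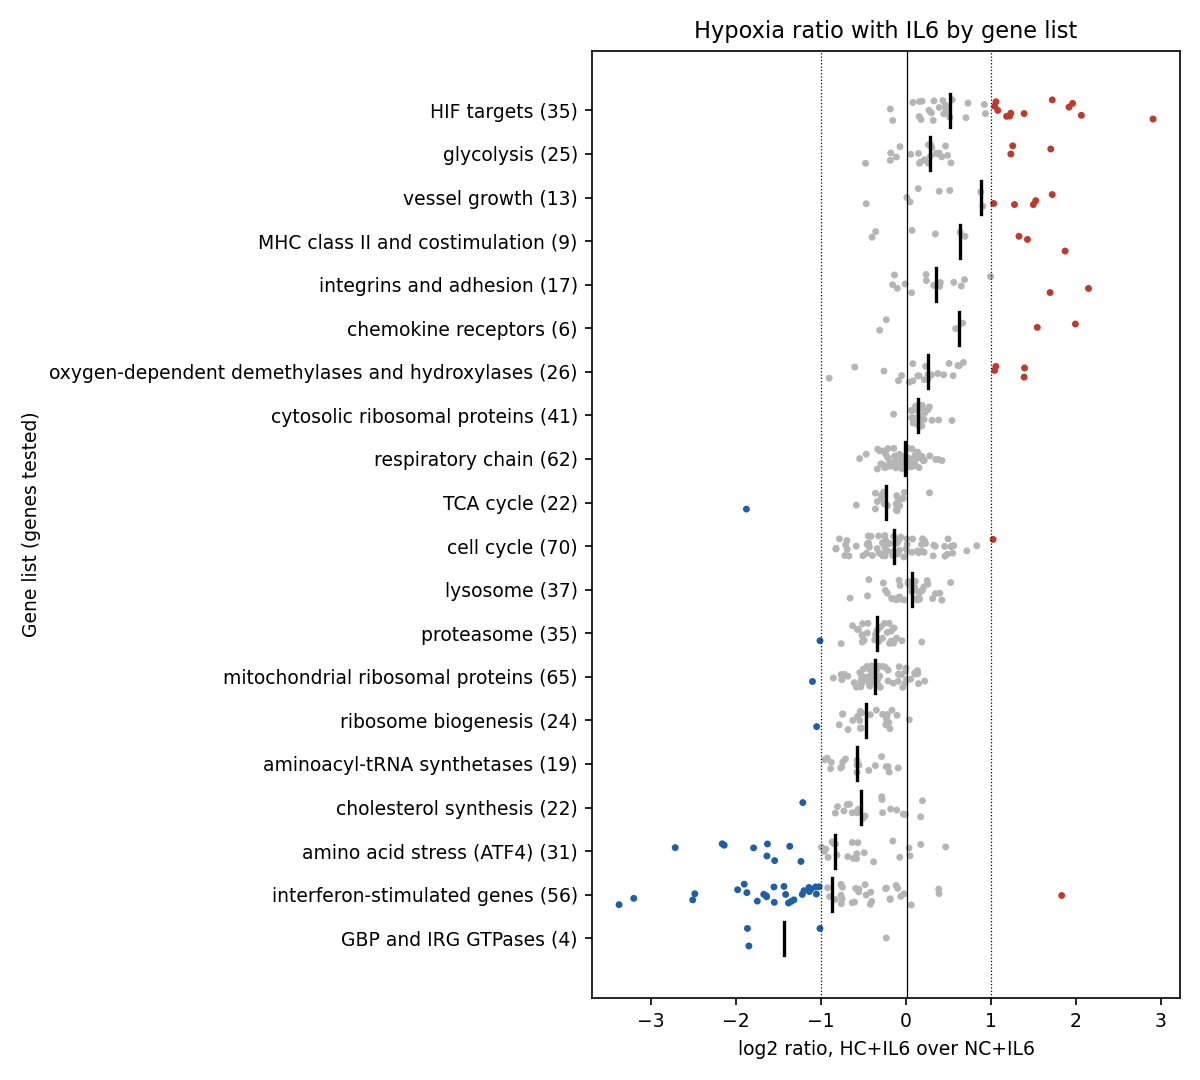
Each point is 1 tested gene, placed by its log2 ratio of HC+IL6 over NC+IL6 on the x axis within its gene list on the y axis, where the number in brackets counts the tested genes. Red and blue points are genes called higher and lower, black bars are list medians, the solid line is the median of all 8526 genes and dotted lines mark 2-fold. HIF targets lie to the right with a median of 0.52, and the interferon and ATF4 lists lie to the left with medians of -0.87 and -0.83.

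Genes of the amino acid response were among the lower genes in hypoxia with IL6. Of 35 genes that ATF4 drives or that carry its signal, 31 could be compared, 9 were lower (29%, against 1.3% of all genes), none was higher, the median log2 ratio was -0.83 and 27 had a negative ratio. On NC+IL6 25 of the 31 were brightest, a count that partly follows from admitting genes by the arrays with IL6 only. Chac1, which breaks down glutathione, had log2 signals of 7.65 in HC+IL6, 10.37 in NC+IL6, 7.25 in HC and 8.79 in NC and was 6.58-fold lower with IL6. Trib3, a pseudokinase that restrains the response, had 8.82, 10.98, 7.02 and 7.84 and was 4.48-fold lower, with both probe sets in that direction. Slc7a5, the transporter that brings large neutral amino acids into the cell, had 10.09, 12.23, 10.07 and 11.58 and was 4.41-fold lower. Its 2 hypoxia arrays were nearly equal, and its 2 normoxia arrays were both brighter. Atf4 itself was 3.11-fold lower, at 11.87 against 13.51, its relative Atf5 was 3.47-fold lower, and Ddit3, or CHOP, a factor that promotes cell death, was 2.58-fold lower.

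Enzymes and transporters of amino acid supply were also among the lower members. Cth, which makes cysteine, was 3.1-fold lower, at 9.99 against 11.62, and Shmt2, the mitochondrial enzyme that splits serine, was 2.36-fold lower with 4 of 4 probe sets in that direction. The amino acid transporter Slc1a4 was at least 2.92-fold lower. The other 7 of 10 tested genes for amino acid and one-carbon synthesis were not called and all had a negative ratio, for example Asns, asparagine synthetase, at -0.96 and Phgdh, the first enzyme of serine synthesis, at -0.63. The kinases that sense stress and start the response had ratios near 0, with 0.04 for Eif2ak3 and 0.17 for Eif2ak4. None of the 19 aminoacyl-tRNA synthetase genes, which charge tRNAs and several of which ATF4 also drives, was called, but all 19 had a negative ratio, with a median of -0.58 and a range from -0.96 for Cars to -0.09 for Vars. In hypoxia without IL6 the median of these 19 was -0.53, with 1 lower, against 1.09% of all genes measured there.

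Chaperones of the ER were little different. Of 29 tested genes for ER folding 1 was higher and 1 lower (3.45% each), near the 2.3% and 1.3% of all genes. The median log2 ratio was -0.15. The higher one was Ero1a. The lower one was Fkbp11, a prolyl isomerase, at 2.92-fold, with log2 signals of 9.28 in HC+IL6, 10.83 in NC+IL6, 7.86 in HC and 9.91 in NC. Hspa5, or BiP, a central ER chaperone, had 15.12 and 14.98 with IL6, and Hsp90b1 had 14.60 and 14.55. Among 21 heat-shock chaperones of the cytosol and mitochondria 1 was higher (4.76%), against 2.3% of all genes, and none was lower. It was Hspa1b, an inducible HSP70, 2.99-fold higher at 10.14 against 8.56 with 3 of 3 probe sets in that direction.

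Few genes of protein production and breakdown passed the threshold. Of 65 mitochondrial ribosomal protein genes 56 were on the negative side, their median log2 ratio was -0.36, and 1 was called lower, Mrpl37 at 2.15-fold. Of 24 ribosome biogenesis genes 23 had a negative ratio, with a median of -0.47, and Rrp9, a part of the particle that trims ribosomal RNA, was 2.07-fold lower. Of 35 proteasome genes 34 had a negative ratio, with a median of -0.34. The cytosolic ribosomal proteins were on the other side, with 40 of 41 positive and a median of 0.14 without a call, but this median was 0.01 after quantile normalization and 0.25 after cyclic loess. Of 25 translation initiation factor genes 17 were negative and none was called, with a median of -0.09. Over all genes tested 4364 ratios were positive and 4162 negative. In the proteasome list only Psmb10 was called, and no member was after quantile normalization or cyclic loess. Without IL6 the medians were -0.38 for mitochondrial ribosomal proteins, -0.45 for ribosome biogenesis and -0.37 for the proteasome. They were -0.01 for cytosolic ribosomal proteins and -0.29 for translation initiation factors.

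Genes of energy production in mitochondria were close to equal. None of 62 respiratory chain and ATP synthase genes was called, the median log2 ratio was -0.01, and the range was -0.55 to 0.42. The 18 tested enzymes of the tricarboxylic acid cycle were not called either, though all 18 had a negative ratio, with a median of -0.17. Acod1, which diverts an intermediate of the cycle to itaconate, an antimicrobial and anti-inflammatory metabolite, was 3.68-fold lower. It had log2 signals of 8.42 in HC+IL6, 10.30 in NC+IL6, 7.96 in HC and 7.46 in NC, so that its ratio without IL6 was 0.46.

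Lipid synthesis genes mostly had small negative ratios. Of 22 cholesterol synthesis genes 20 had a negative ratio, the median was -0.53, and 1 was called, Lss, lanosterol synthase, at 2.32-fold lower. Its 2 probe sets had opposite signs. Without IL6 the same 22 genes had a median of -1.08 and 16 were lower, against 1.09% of all genes measured there. Insig1, which holds the sterol sensor in the ER, had a log2 ratio of -0.57 with IL6. Of 16 fatty acid synthesis genes 15 had a negative ratio, and Scd1, the desaturase that makes oleate, was 2.16-fold lower, at 10.57 in HC+IL6, 11.69 in NC+IL6, 9.0 in HC and 11.26 in NC. Hacd4, a dehydratase of fatty acid elongation, was instead 2.58-fold higher, at 10.34, 8.97, 10.73 and 8.03 on these arrays. Abcg1, an exporter of cholesterol that the receptor LXR induces, was 2.51-fold lower, at 9.68 against 11.01, with both probe sets in that direction, and was the only called gene of 13 for lipid handling. Lpl, lipoprotein lipase, had a log2 ratio of 0.81.

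Receptors and adhesion molecules of the macrophage surface were mostly higher where they were called. Ccr1, the receptor for Ccl3 and Ccl5, had log2 signals of 11.91 in HC+IL6, 9.91 in NC+IL6, 7.57 in HC and 5.77 in NC and was 3.98-fold higher, with both probe sets in that direction. Ccr2, the receptor for Ccl2, had 9.05, 7.94 and 6.58 in HC+IL6, HC and NC, lay just under the limit in NC+IL6, and was at least 2.92-fold higher with IL6. The other 4 chemokine receptor and related genes tested, Cx3cr1, C3ar1, C5ar1 and Ccrl2, were not called, and none of 6 CC chemokines was. Thus 2 of 6 genes in the receptor list were higher, against 2.3% of all genes. Itgam, the integrin chain CD11b, had 11.12, 9.43, 10.08 and 8.43 and was 3.24-fold higher. Cytip, which regulates leukocyte adhesion through cytohesin, had 10.93, 8.78, 12.17 and 11.16 and was 4.44-fold higher. Its lowest signal was in NC+IL6, unlike that of Itgam, which was in NC. Of 17 integrin and adhesion genes these were the only 2 called, against 2.3% of all genes higher, and the median was 0.36. Itga6 lay just outside the threshold at 0.99.

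Among receptors for antibodies Fcgr3, a low-affinity IgG receptor, was 2.16-fold higher, at 12.76 against 11.66. Fcgr1, the high-affinity receptor, had a log2 ratio of -0.71 with its probe sets in opposite directions. Pirb, an inhibitory receptor that binds class I molecules, was at least 2.13-fold higher, at 8.59 against 6.31. With IL6 it reached the limit only in HC+IL6. None of 6 scavenger receptors was called. Of 10 lectins and Siglecs only Clec2d, a ligand of a natural killer receptor, was called, and it was at least 2.74-fold lower. Over all genes 1.3% were lower. Cd74, the invariant chain that guides class II molecules, was 3.66-fold higher, with log2 signals of 10.62 in HC+IL6, 8.75 in NC+IL6, 11.04 in HC and 9.37 in NC. Vsir, an inhibitory ligand of T cells, was 2.69-fold higher, at 11.30 against 9.87 with both probe sets in that direction, and Havcr2, or TIM-3, was 2.51-fold higher, at 9.07 against 7.74. Only 9 of 22 genes for class II presentation and costimulation could be compared, and of the 11 class II genes only 3.

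Among cytokines and other secreted proteins Wfdc17, secreted by activated macrophages, was 4.45-fold higher, with log2 signals of 13.05 in HC+IL6, 10.90 in NC+IL6, 10.28 in HC and 9.43 in NC. Il10, which restrains inflammation, was at least 3.25-fold higher, at 9.20 and 7.19 with IL6, and under the limit at 4.88 in HC and 5.20 in NC. It reached the limit on the HC+IL6 array only. No other cytokine or receptor of the 29 tested was called, with Tnf at -0.59 and Il18 at -0.57. The 2 higher of 29 stand against 2.3% of all genes. Cxcl10, an interferon-induced chemokine for T cells, was 7.01-fold lower, at 8.23, 11.04, 8.01 and 8.70 on the same 4 arrays. Cxcl2, which attracts neutrophils, was 4.38-fold lower with IL6, at 10.26 against 12.39, but its log2 ratio without IL6 was 1.78, from 9.28 in HC and 6.49 in NC. Ptgs2, the inducible cyclooxygenase of prostaglandin synthesis, was 2.25-fold higher, at 13.66 against 12.49, and Alox5, which starts leukotriene synthesis, was 2.02-fold higher, at 9.43 against 8.42. Of 11 tested genes of these 2 pathways 10 had a positive ratio.

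Set out as marker lists, 11 of 29 genes of alternative (M2) activation could be compared, with 2 higher (Il10 and Ccr2), none lower and a median log2 ratio of 0.54. Both reached the limit with IL6 only in HC+IL6, the condition where they were high, and with a limit of 8.5 none of 9 M2 genes was higher. The other 9 M2 genes tested were not called, with log2 ratios from -0.50 for Il1rn, the antagonist of the IL1 receptor, to 0.98 for Clec7a, a receptor for fungal glucans, and 2 of them were negative. Of 23 genes of classical (M1) activation 11 could be compared, with 1 higher (Ptgs2), 2 lower (Cxcl10 and Cxcl2) and a median of -0.36. Over all genes tested, to be set beside both lists, 2.3% were higher and 1.3% lower. Of 17 genes that the study names from its arrays or uses as markers, 12 were under the limit on both arrays with IL6. Among them were Il12a, Il12b, Il6, Ifna1, Il1a, Fcer2a, Scara5 and Cxcr2, and also the surface markers Cd86, at 5.06 with hypoxia and 6.79 without, Mrc1, or CD206, at 6.33 and 4.85, and Cd209a, at 6.48 and 4.06. No fold is given for these genes. Adgre1, a surface receptor used to mark mouse macrophages, had 11.46 and 11.09.

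**Figure D3:**
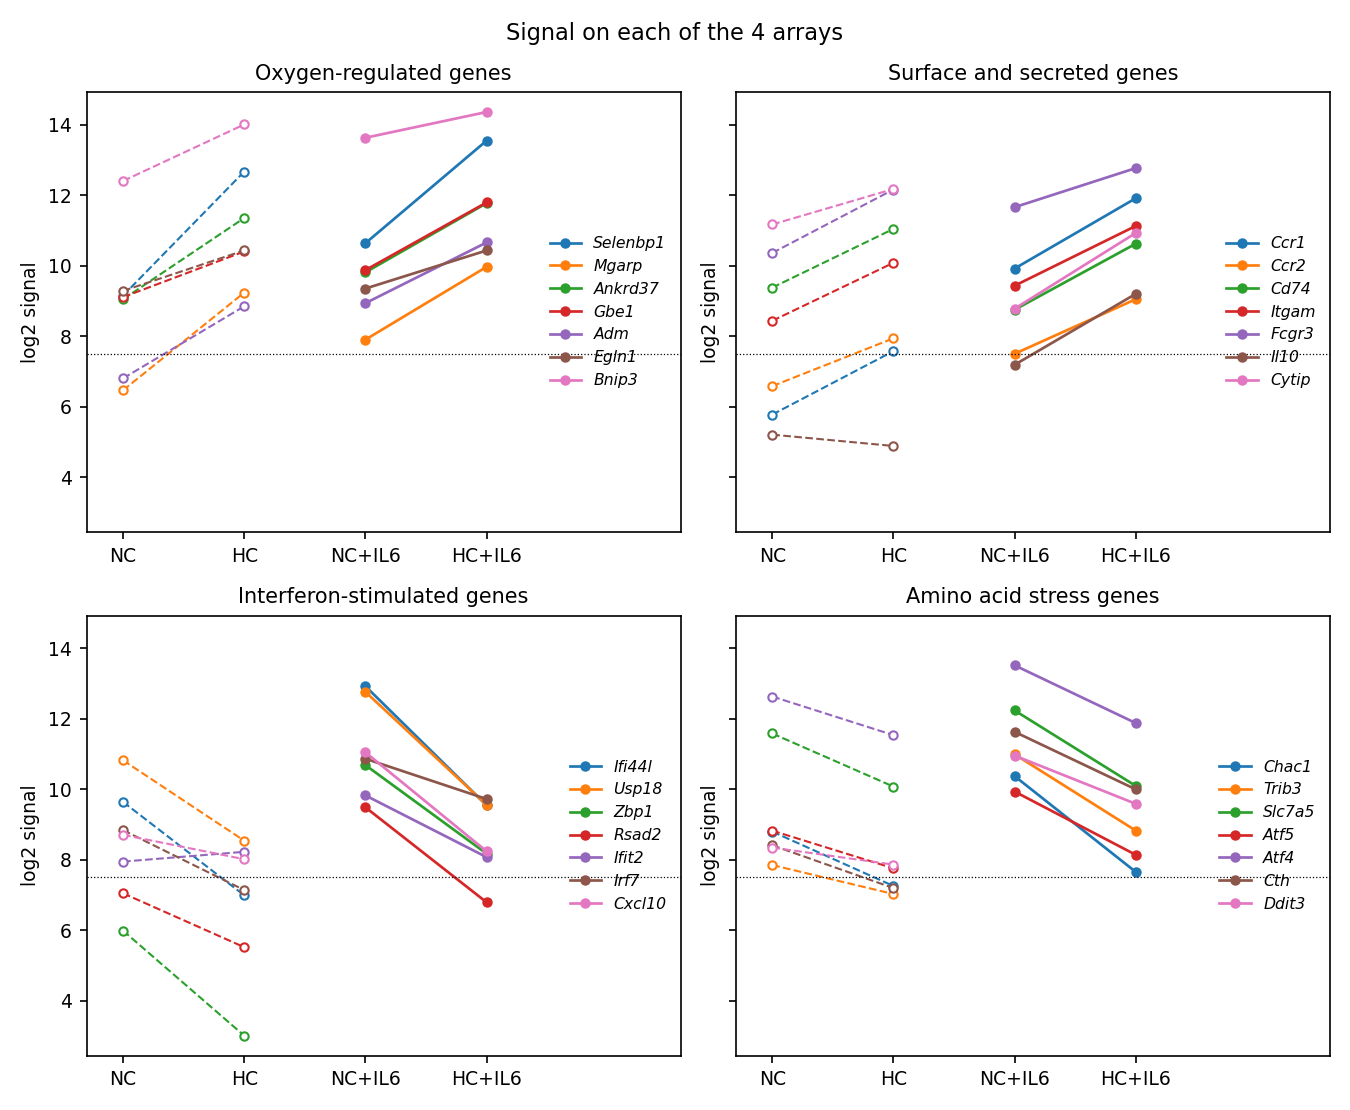
Log2 signal on the y axis of named genes on each of the 4 arrays, with open symbols and dashed lines for NC and HC and filled symbols and solid lines for NC+IL6 and HC+IL6, 1 array each, so that no error can be drawn. The dotted line is the limit of 7.5. With IL6 every gene in the upper panels is higher in hypoxia and every gene in the lower panels is lower, by 10.4-fold for Ifi44l and 3.98-fold for Ccr1.

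Some genes of vessel growth and matrix were also higher. Of 13 tested genes for vessel growth factors and their receptors 5 were higher, against 2.3% of all genes, none was lower, and the median log2 ratio was 0.88. With a limit of 8.5 the median was 0.52 and 2 were higher, and with the limit's signal added to every signal it was 0.66 and 3 were higher. Ecm1 and Plxnd1 reached the limit with IL6 only in HC+IL6. Besides Adm these were Ecm1, a secreted matrix protein, at least 2.88-fold higher at 9.03 against 7.19, Plxnd1, a semaphorin receptor, at least 2.83-fold higher at 9.0 against 7.02, Flt1, a VEGF receptor, 2.42-fold higher at 9.04 against 7.76 with 3 of 3 probe sets in that direction, and Pdgfa, a growth factor for mesenchymal cells, 2.04-fold higher at 9.91 against 8.88. Igf1 and Pdgfb, at 0.88 and 0.91, lay just outside the threshold. Edil3, a secreted protein that binds integrins, was 3.31-fold higher, with log2 signals of 9.32 in HC+IL6, 7.59 in NC+IL6, 8.49 in HC and 6.53 in NC. Both hypoxia arrays were brighter than both normoxia arrays. None of 12 secreted and matrix proteases was called, and 11 had a positive ratio.

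Signaling genes differed in single members. Of the IL6 and STAT3 pathway 23 genes could be compared and none was called. Il6ra, the receptor chain for IL6, had a log2 ratio of 0.22, Stat3 had 0.31, and Socs3, the feedback inhibitor that STAT3 induces, had 13.55 against 12.59, a ratio of 0.96. No gene of 18 tested for the MAPK cascade was called. Of 13 genes for feedback on this cascade 2 were higher, against 2.3% of all genes. They were the phosphatases Dusp6, at 2.15-fold, and Dusp7, at 2.05-fold. After quantile normalization or cyclic loess 1 of 12 feedback genes was higher, and with a limit of 8.5 it was 1 of 11. Nt5e, or CD73, the surface enzyme that makes adenosine, was 2.88-fold higher, with log2 signals of 10.03 in HC+IL6, 8.5 in NC+IL6, 7.06 in HC and 4.85 in NC. Regulators of G proteins went both ways. Rgs16 was at least 2.98-fold higher, while Rgs1 was 2.35-fold lower and Rgs2 2.23-fold lower with 3 of 3 probe sets in that direction. Rgs2 was dimmest in HC+IL6, at 10.33, with 11.49 in NC+IL6 and 11.87 in both HC and NC.

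Among transcription factors of myeloid cells Id2, an inhibitor of helix-loop-helix factors, was 2.51-fold higher and Cebpa, a factor of myeloid identity, was 2.19-fold higher. Rel, the NF-kB subunit c-Rel, was at least 2.38-fold lower, at 7.17 in HC+IL6 against 8.75 in NC+IL6. Spi1, or PU.1, had a log2 ratio of -0.14. Trp53inp1, a p53 target that promotes autophagy, was 3.3-fold higher, at 9.33 against 7.61, and Zmat3, another p53 target, was 2.39-fold higher, while Plk2 was at least 2.26-fold lower. Wipi1, which acts early in autophagosome formation, was at least 2.5-fold higher. Sqstm1, or p62, the receptor that carries cargo to autophagosomes, was 2.17-fold lower, at 11.05 in HC+IL6, 12.17 in NC+IL6, 11.14 in HC and 11.43 in NC. Cast, calpastatin, the inhibitor of calpain proteases, was 3.88-fold higher, at 10.71, 8.76, 10.92 and 8.78 with 3 of 3 probe sets in that direction. The other 4 calpain genes tested were not called.

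Of 70 cell cycle genes only Cenpf, a kinetochore protein, was called, at 2.04-fold higher, against 2.3% higher and 1.3% lower of all genes. After quantile normalization or cyclic loess none of the 70 was called. Of the 26 DNA replication genes 22 had a negative ratio, with a median log2 ratio of -0.42 and no call, and of 19 genes for G1 cyclins and their inhibitors 16 had a positive ratio, with a median of 0.34. None of the 37 lysosome genes and 24 antioxidant genes tested from these lists was called. Arsb, a lysosomal sulfatase given below, was higher but is not in the lysosome list. Of 34 genes of the actin cytoskeleton 2 were higher (5.88%), against 2.3% of all genes. They were Basp1, a protein of the cell cortex, at 2.79-fold and Gsn, gelsolin, which severs actin filaments, at 2.27-fold with 5 of 5 probe sets in that direction. In all, 54 lists had 10 or more tested genes, and 16 of these had no called member.

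Of the 196 higher genes 144 belonged to none of the 74 lists. At least 1 list held 52 of the higher genes (26.5%) and 60 of the 111 lower genes (54.1%), against 14.2% of all genes tested, and the lists were drawn up with results of these data known. Rtel1, a helicase of telomeres, was 4.72-fold higher on the probe set used, at 12.18 in HC+IL6 against 9.94, but its other probe set had the opposite sign. Klhl6, an adaptor of a ubiquitin ligase in blood cells, was 3.4-fold higher, with log2 signals of 11.96 in HC+IL6, 10.19 in NC+IL6, 12.07 in HC and 11.27 in NC. Arsb, a lysosomal sulfatase, was 3.31-fold higher, at 12.82, 11.09, 13.89 and 12.64 on these arrays. Both had their lowest signal in NC+IL6. Cda, cytidine deaminase, was 3.81-fold higher, at 10.56 against 8.63 with IL6, and under the limit in HC and NC. Lrp1, an endocytic receptor, was 3.21-fold higher, and Malat1, a long noncoding RNA, was 2.18-fold higher with 7 of 7 probe sets in that direction. St6gal1, which adds sialic acid to N-glycans and belongs to the list for nucleotide sugars and glycosylation, was 3.06-fold higher. Lztr1, an adaptor that targets RAS-family GTPases for degradation, was 3.21-fold lower, at 9.46 in HC+IL6, with the other arrays between 11.02 and 11.15. It was thus low on the HC+IL6 array only, with both probe sets in that direction.

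Hypoxia without IL6, HC against NC, shares no array with the comparison and was read on the same probe sets. Of the 8234 genes measured there 2.91% were higher and 1.09% lower. Of the 196 genes higher with IL6, 188 were measured without it, 85 (45.2%) were also higher, none was lower, and 186 had the same sign. Their median log2 ratio was 1.23 with IL6 and 0.94 without. Of the 111 lower genes 98 were measured, 29 (29.6%) were also lower, 84 had the same sign and 14 the opposite one. Their median was -1.20 with IL6 and -0.65 without. Genes of both groups were selected by their ratio with IL6, so smaller medians without IL6 partly follow from that selection. The share of all genes with the same sign in both comparisons was not counted. The exceptions among the higher genes were Rtel1 and R3hcc1l, at -0.72 and -0.09 without IL6. Among the lower genes the largest opposite ratio was that of Cxcl2, followed by Rabl2 at 0.59, Ifi202b at 0.52 and Acod1 at 0.46. The difference between the ratios with and without IL6 was not tested, since each rests on 1 pair of arrays.

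**Figure D4:**
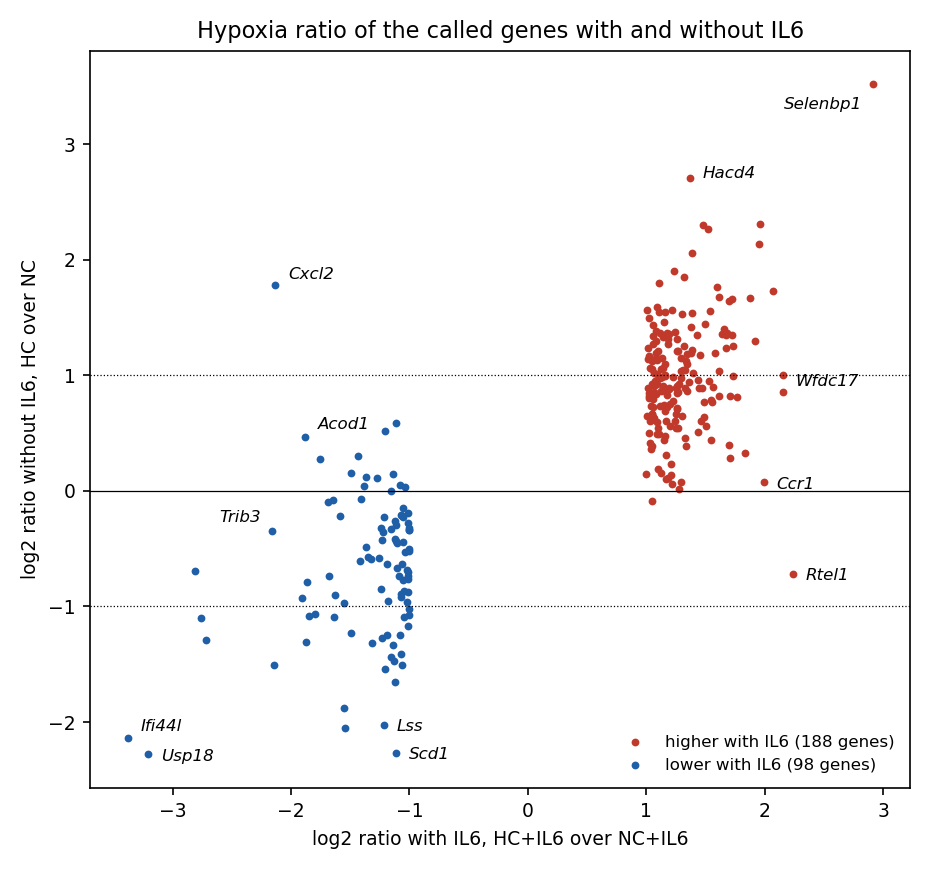
Log2 ratio of hypoxia over normoxia with IL6 on the x axis and without IL6 on the y axis for the 188 higher (red) and 98 lower (blue) genes that could be measured in both, with dotted lines at 2-fold on the y axis. Points left and right of the empty middle strip were selected by their ratio on the x axis. Cxcl2 stands alone at -2.13 and 1.78.

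The elements shown at the start were counted in the windows of all genes with a RefSeq promoter. The hypoxia element was present in at least 1 promoter of 28 of 32 tested HIF targets (87.5%) and of 94 of 169 higher genes (55.6%), against 64.8% of 7071 tested genes and 41.5% of all 27025 genes in the promoter table. The share in the higher genes as a whole was thus below that of the tested genes. The interferon element was present in 7 of 21 lower interferon-stimulated genes (33.3%) and in 15 of 92 lower genes (16.3%), against 3.17% of tested genes and 3.46% of all. In the higher genes it was present in 2.37%. The amino acid response element was present in 5 of 28 tested genes of the ATF4 list (17.9%), against 2.26% and 3.91%, and among the lower ones in Chac1 only, 1 of 7. The AP-1 element TGANTCA was present in 10.9% of lower and 7.1% of higher genes, against 4.85% of tested genes and 7.82% of all. The sterol element CACCCCAC was present in 1 of 18 cholesterol synthesis genes, against 3.2% and 2.98%. A match is a description of letters in this window and was not tested as a binding site.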

How the data were processed

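RNA of RAW264.7 cells from 4 conditions, 1 sample each, was hybridized to Affymetrix mouse arrays. The authors summarized probe sets with MAS5 (the sources used here do not state a version) and deposited log2 signals for 45101 probe sets. The values show a mean of 500 on every array after trimming 2% at each end, and signals of 1 or less are listed as 0. The array design that the methods name was not settled against the 45101 probe sets of the table. The number of arrays limits the precision, and detection calls were not used.

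Ratios, calls, lists and motifs were computed from the deposited log2 signals with Python 3.11.15, numpy 2.4.6 and pandas 2.3.3, and figures with matplotlib 3.10.9. Of 35890 annotated probe sets, 34958 carry 1 symbol and 932 several, and 9211 are not listed. Each gene is represented by the brightest of its passing probe sets, by mean log2 signal over all 4 arrays, and of the 15449 probe sets compared 1382 have no single symbol. Gene IDs of 34754 probe sets matched the RefSeq table of GRCm38.p6, and no symbol changed.

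Alternatives were quantile normalization and cyclic loess (limma 3.58.1, R 4.3.3), centred ratios, low signals as deposited, a limit of 8.5, no filter, 1.5-fold, and 3 other rules for probe sets. The limit's signal added to every signal was chosen after seeing the data. The scripts were tested on simulated data.

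The comparison, the gene lists and the rules were chosen with earlier results of these data known. Named genes are the 20 highest and 20 lowest, up to 4 called and 2 brightest uncalled members of each list, and the study's own markers. Chosen after their values were seen were Bst2, Pfkfb4, Ddit4, Egln3, Fam162a, Vegfa, Ndrg1, Irf7, Ifnar1, Irf9, Atf4, Ddit3, Cth, Shmt2, Slc1a4, Asns, Eif2ak3, Eif2ak4, Cars, Vars, Insig1, C5ar1, Ccrl2, Itga6, Tnf, Clec7a, Il1rn, Pdgfa, Pdgfb, Il6ra, Stat3, Spi1, Lrp1, Malat1, R3hcc1l, Rabl2 and Ifi202b, and also Serpinf1, Bsg, Jag1, Mef2c, Egr2 and Egr3. A few genes are not reported here.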

Additional observations from a re-analysis of the deposited data

Results flagged for a closer look

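Cxcl2, a chemokine for neutrophils, differed in opposite directions with and without IL6. Its log2 ratio of hypoxia over normoxia was -2.13 with IL6 (HC+IL6 over NC+IL6, log2 signals of 10.26 and 12.39) and 1.78 without IL6 (HC over NC, 9.28 and 6.49, the dimmer raised to the limit). It was the only one of the called genes that was also called without IL6 in the opposite direction. Each direction rests on 1 pair of arrays and 1 probe set, and the difference was not tested.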

How the results depend on the processing

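With no replicates, an alternative could only be set against the counts and ratios themselves. Of the 196 higher and 111 lower genes, the number became 298 and 143 with low signals as deposited, 117 and 85 with a limit of 8.5, 2812 and 1910 with no filter, 815 and 535 at 1.5-fold, and 94 and 64 with the limit's signal added to every signal. Of the 432 higher and 192 lower probe sets, it became 833 and 265 with low signals as deposited, 221 and 141 with a limit of 8.5, 9053 and 5418 with no filter, 1681 and 969 at 1.5-fold, and 181 and 95 with the limit's signal added. The alternatives not named in these sentences kept the gene counts between 162 and 198 higher and 98 and 135 lower. Loess gave 162 and 135 genes, of which 162 and 108 were also called before. The median ratio of all genes moved by at most 0.06. Medians of the HIF, interferon, ATF4 and cholesterol lists kept their sign in every alternative, between 0.47 and 0.73, -1.01 and -0.81, -0.85 and -0.73, and -0.54 and -0.38. Of 2168 recomputed ratios of the 220 named genes, 2092 kept their side of the threshold, 69 fell short of it and 7 newly reached it. Among the genes called at first 0 changed sign, while the sign of uncalled genes was not compared. Those that fell short include Il10, Ccr2, Eno2, Edil3, Flt1, Ecm1, Plxnd1, Egln1, Rsad2, Rtel1, Lss and Lztr1. No paired analysis was possible because each condition has 1 array.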

Other observations

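Immediate early genes, which cells switch on within minutes of a stimulus, differed by less than 2-fold between hypoxia and normoxia with IL6. None of 18 was called, against 2.3% higher and 1.3% lower of all genes. The median log2 ratio was 0.26, against 0.01 over all genes. In hypoxia without IL6, 5 of 17 were higher, against 2.91% of all genes measured there. Egr1, a zinc finger factor, had a log2 ratio of 2.62 without IL6 but of 0.29 with it, where its log2 signals were 12.72 in hypoxia and 12.42 in normoxia. Egr2 and Egr3, of the same family, had ratios of 1.84 and 2.33 without IL6 and of 0.54 and 0.64 with it. On all 3 genes the HC array was the brightest. The difference between the ratios was not tested.

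Further genes outside the lists were also higher in hypoxia. Fgf11, an intracellular homologue of the fibroblast growth factors, differed by at least 3.26-fold, with 9.20 in hypoxia and 7.14 in normoxia, both with IL6. Serpinf1, or PEDF, a secreted inhibitor of vessel growth, was 3.11-fold higher, at 9.96 against 8.32. Bsg, or basigin, a partner of lactate transporters, was 2.53-fold higher, and Jag1, a Notch ligand, was 2.28-fold higher. Mef2c, a transcription factor, was 2.15-fold higher with 5 of 5 probe sets in that direction. Of 21 chromatin regulators only Kmt2a, a histone methyltransferase, was called, at 2.07-fold higher, and of 30 splicing factors only Srrm2, at 2.07-fold higher. Over all genes 2.3% were higher. After quantile normalization or cyclic loess no chromatin regulator was called. None of 18 Toll-like receptor genes, 16 iron and heme genes and 18 genes of the BCL2 family and cell death was called.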
